A study of Mus musculus with 2 samples.

Results

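The GATA transcription factors and their FOG cofactors were measured in the heart of mouse embryos at embryonic day 13.5. The 8 genes Gata1, Gata2, Gata3, Gata4, Gata5, Gata6, Zfpm1 (FOG1) and Zfpm2 (FOG2) were chosen by symbol, and all 8 were found among 43346 Ensembl genes, of which 21474 are protein-coding. Gata4, Gata6, Gata5 and Zfpm2 are called cardiac members here, and Gata2, Gata1, Gata3 and Zfpm1 blood and endothelial members, after the roles they are best known for. The data were 2 total RNA libraries, replicates 2 and 1 of 1 group, from healthy B6NCrl embryos (a C57BL/6N substrain) with males and females pooled. The pair were labelled as biological replicates from separate tissue samples under 1 donor entry. Each library was made from 10 ng of mirVana-extracted RNA with spike-ins added, and the labels link to a manual of the SMARTer Ultra Low kit. No treated, mutant or other-stage group is part of the data, so differences between the libraries are described without a test.

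GATA factors carry a pair of zinc fingers of the same type, the C-terminal one of which binds DNA at GATA words, and FOG proteins bind GATA factors through the N-terminal finger rather than binding DNA themselves. FOG proteins recruit co-repressors, among them the CtBP proteins and the NuRD chromatin complex. In the heart GATA4, GATA5 and GATA6 act with NKX2-5, TBX5, MEF2C and HAND2 on genes of the cardiomyocyte and endocardium, and FOG2 restrains GATA4 and is needed for heart morphogenesis. GATA1 with FOG1 drives red cell and platelet precursor genes, GATA2 acts in blood progenitors, mast cells and endothelium, and GATA3 in T cells, sympathetic neurons and other tissues.

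The C-terminal zinc finger binds DNA in every GATA member, and reads of these related genes are told apart by the bases that differ, so its coding stretch is shown for the GATA members whose sequence is given here. Each stretch runs over 75 coding bases, 5′ to 3′ on the coding strand, from the first to the last cysteine codon of the finger in the GENCODE M21 transcript (GRCm38). Capitals mark the 44 of 75 positions that are the same in all 5 stretches.
Gata4: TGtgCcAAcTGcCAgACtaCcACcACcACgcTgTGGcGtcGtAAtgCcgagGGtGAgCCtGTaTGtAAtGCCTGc
Gata5: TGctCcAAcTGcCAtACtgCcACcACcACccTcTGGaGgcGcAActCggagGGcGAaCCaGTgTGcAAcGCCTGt
Gata2: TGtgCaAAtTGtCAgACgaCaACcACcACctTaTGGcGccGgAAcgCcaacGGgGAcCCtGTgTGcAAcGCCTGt
Gata1: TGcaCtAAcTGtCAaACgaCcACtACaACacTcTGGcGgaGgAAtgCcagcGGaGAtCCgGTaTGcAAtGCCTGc
Gata3: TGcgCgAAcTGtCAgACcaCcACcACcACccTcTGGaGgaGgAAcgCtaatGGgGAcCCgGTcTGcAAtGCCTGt
The finger occupies residues 270 to 294 of 441 in GATA4, 250 to 274 of 404 in GATA5, 349 to 373 of 480 in GATA2, 258 to 282 of 413 in GATA1 and 317 to 341 of 443 in GATA3. In residues, GATA2 and GATA3 were 100% identical over this finger, GATA4 and GATA6 96.0%, and GATA5 and GATA1 76.0%. In bases, identity between members over the same finger lay between 68.0% and 81.3%. Over the N-terminal finger, which FOG proteins contact, residue identity lay between 84.0% and 96.0%. The longest run of bases that 2 GATA genes share in any transcript was 26 nt, between Gata4 and Gata5, and Zfpm1 and Zfpm2 shared at most 20 nt. Read on the same strand, no 100-nt window of any of the 8 genes occurred in a transcript of another gene. At 50 nt, 29 of 3966 windows of Gata3 (0.731%) also occurred in 9230102O04Rik, a same-strand gene overlapping it, and none of the other 7 genes had such a window. Read on the opposite strand, 163 of 3228 windows of 50 nt in Gata5 (5.05%) occurred in its antisense neighbour Gata5os, 59 in Gata3 in Gm13256, and 44 in Gata6 in 1010001N08Rik, and none in the other 5 genes. The estimated read counts were whole numbers in both libraries for 7 of the 8 members, and Gata5 was the exception.

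All 8 members reached 1 TPM (a transcript abundance corrected for length and depth) in both libraries, as did 57.3% of all protein-coding genes. Gata4 was highest, Gata6 next, and each of the remaining 6 averaged 10.6 TPM or less. Their means ran from 86.6 TPM for Gata4 to 2.74 TPM for Gata3, against medians of 3.07 TPM over all protein-coding genes and 15.1 TPM over those at or above 1 TPM in both libraries. In bulk tissue, fewer cells of a type and less RNA per cell cannot be told apart.

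Gata4, the central GATA factor of cardiomyocytes (ENSMUSG00000021944.11, chromosome 14, 63198922 to 63271692, minus strand), had 88.95 TPM in replicate 2 and 84.33 TPM in replicate 1. The mean was 86.6 ± 3.27 TPM (SD, n = 2), higher than 93.3% of protein-coding genes. Gata6, which acts in myocardium, outflow tract and endoderm (ENSMUSG00000005836.8, chromosome 18, 11052064 to 11085635, plus strand), had 34.34 TPM in replicate 2 and 33.00 TPM in replicate 1. Its mean was 33.7 ± 0.948 TPM (SD, n = 2). Both genes were abundant and close between the libraries. Gata4 exceeded Gata6 by 2.59-fold in replicate 2 and 2.56-fold in replicate 1, a log2 ratio of 1.36 ± 0.014 (SD, n = 2). Only Gata6 over Zfpm1 and Gata4 over Zfpm1 varied less among the 28 pairs of members. The deposited credibility intervals of TPM, 83.9 to 91.2 in replicate 2 and 79.5 to 86.4 in replicate 1 for Gata4, stayed apart from those of the other members in both libraries.

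Gata5, known from endocardium and cushion cells (ENSMUSG00000015627.5, chromosome 2, 180325133 to 180334699, minus strand), was the third cardiac GATA factor, with 9.66 TPM in replicate 2 and 11.46 TPM in replicate 1. It was the cardiac member with the largest difference between the libraries, and its deposited intervals, 8.82 to 10.1 TPM in replicate 2 and 10.6 to 11.9 TPM in replicate 1, did not overlap. Gata4 exceeded it 9.21-fold in replicate 2 and 7.36-fold in replicate 1. The antisense gene Gata5os overlaps its 5′ end and had 0.91 TPM in replicate 2 and 0.89 TPM in replicate 1. Reads of Gata5 and Gata5os were each fractional but summed to whole numbers, 881 in replicate 2 and 1108 in replicate 1, so the 2 genes shared reads between them. Gata5os held 39.6 of these in replicate 2 and 41.1 in replicate 1.

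Zfpm2, the FOG cofactor of heart and gonad (ENSMUSG00000022306.8, chromosome 15, 40655035 to 41104592, plus strand), had 8.10 TPM in replicate 2 and 8.61 TPM in replicate 1. Its mean was 8.36 ± 0.361 TPM (SD, n = 2). It lay an order below its partner Gata4, which exceeded it 11.0-fold in replicate 2 and 9.79-fold in replicate 1. Zfpm2 exceeded Zfpm1, the other FOG gene, 2.60-fold in replicate 2 and 2.89-fold in replicate 1.

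Among the blood and endothelial members Gata2 was highest (ENSMUSG00000015053.10, chromosome 6, 88193891 to 88207032, plus strand), with 7.29 TPM in replicate 2 and 7.23 TPM in replicate 1. Its mean of 7.26 ± 0.0424 TPM (SD, n = 2) was below that of Zfpm2. Zfpm2 was higher in both libraries, but the intervals of these 2 genes overlapped in replicate 2, though not in replicate 1. Gata1 (ENSMUSG00000031162.10, chromosome X, 7959260 to 7978071, minus strand) had 4.80 TPM in replicate 2 and 2.16 TPM in replicate 1. It was the member that differed most between the libraries, and its intervals, 4.24 to 5.64 TPM in replicate 2 and 1.79 to 2.96 TPM in replicate 1, were far apart.

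Zfpm1, the FOG cofactor of erythroid cells and megakaryocytes (ENSMUSG00000049577.10, chromosome 8, 122282141 to 122337251, plus strand), had 3.12 TPM in replicate 2 and 2.98 TPM in replicate 1. Gata3 had the lowest mean of the deposited TPM, 2.74 ± 0.311 TPM (SD, n = 2; ENSMUSG00000015619.10, chromosome 2, 9857078 to 9890034, minus strand). It had 2.96 TPM in replicate 2 and 2.52 TPM in replicate 1, where Gata1 was lower. Both Zfpm1 and Gata3 were at about the median of all protein-coding genes. The Gata3 values lay just below their own deposited intervals, 2.999 to 5.28 TPM in replicate 2 and 2.63 to 4.72 TPM in replicate 1, and the deposited posterior mean was 4.05 TPM in replicate 2 and 3.61 TPM in replicate 1. By posterior means Gata3, at 3.83 TPM on average, was above Zfpm1, at 3.57 TPM, and Gata1, at 3.64 TPM. Its read counts were 253 in replicate 2 and 230 in replicate 1, so the level depended on which of the deposited estimates was read.

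**Figure D1:**
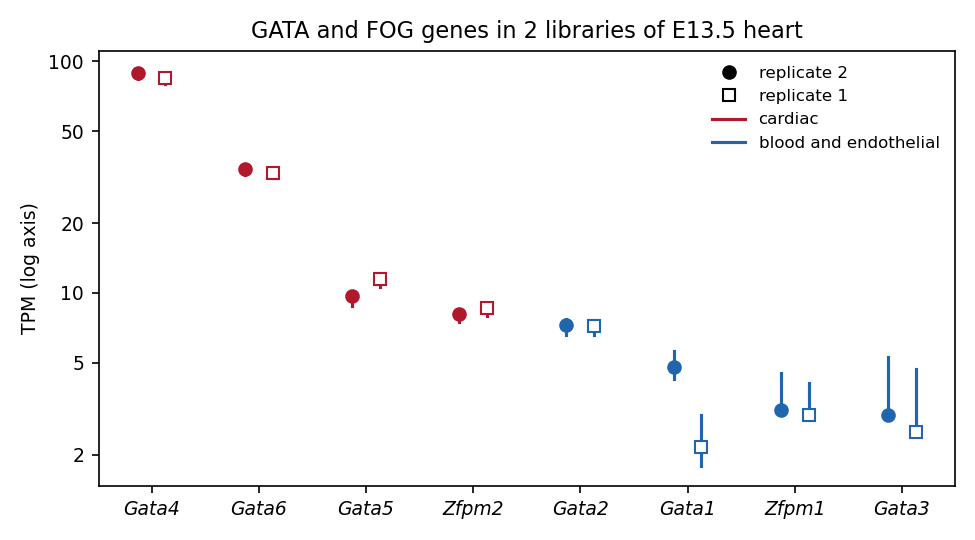
Deposited TPM (log axis) of the 8 genes in replicate 2 (filled circles) and replicate 1 (open squares), with vertical lines for the deposited credibility interval; cardiac members are red, blood and endothelial members blue. Gata4 is highest, with 88.95 TPM in replicate 2 and 84.33 TPM in replicate 1, and only Gata1 (4.80 TPM in replicate 2, 2.16 TPM in replicate 1) and Gata5 have intervals that do not overlap between the libraries.

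Of the 28 pairs of members, 24 kept 1 order in both libraries with intervals that overlapped in neither. Over all pairs of protein-coding genes at or above 1 TPM the share was 89.1%, so such separation is usual. The 4 exceptions were Zfpm2 with Gata2, Gata1 with Gata3, Gata1 with Zfpm1, and Zfpm1 with Gata3. The order was therefore Gata4, Gata6 and Gata5, then Zfpm2 and Gata2 without separation, then Gata1, Zfpm1 and Gata3 without separation. Gata1 was above Gata3 and Zfpm1 in replicate 2 and below both in replicate 1. Gata2 exceeded Gata1 by 1.52-fold in replicate 2 and 3.35-fold in replicate 1. The 5 separated pairs with Gata1 had the largest spread between the libraries among the 24, up to Gata5 over Gata1, 2.01-fold in replicate 2 and 5.31-fold in replicate 1.

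The 4 cardiac members together held 141 TPM in replicate 2 and 137 TPM in replicate 1, and the 4 blood and endothelial members 18.2 TPM in replicate 2 and 14.9 TPM in replicate 1. The cardiac sum was 7.76-fold the other in replicate 2 and 9.23-fold in replicate 1, a log2 ratio of 3.08 ± 0.18 (SD, n = 2). Gata4 alone made up 63.1% of the cardiac sum in replicate 2 and 61.4% in replicate 1. The cardiac sum was thus mostly Gata4 and Gata6, while Gata5 and Zfpm2 were nearer in level to Gata2 than to Gata4.

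Between the libraries, read counts were compared after scaling each library to the other over all Ensembl genes, and a ratio is given as replicate 2 over replicate 1. Its 95% interval is an exact binomial one and covers counting error only. Gata1 had 231 reads in replicate 2 and 99 reads in replicate 1, and was 2.25-fold higher in replicate 2 (log2 ratio 1.17, interval 0.83 to 1.53). It was the only one of 8 members at least 2-fold apart. Of 13760 genes with a mean count of at least 50, 0.734% had such an excess in replicate 2 and 0.269% in replicate 1, and among genes of like depth (mean count 100 to 300) 1.99% had it in replicate 2. Its ratio was above that of 99.4% of the 13760 genes.

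The other 7 members were less than 2-fold apart. Gata5 had 841 reads in replicate 2 and 1067 reads in replicate 1, a log2 ratio of -0.39 (interval -0.52 to -0.26), farther from 0 than 92.4% of genes. Zfpm2 had 1082 reads in replicate 2 and 1229 reads in replicate 1, a log2 ratio of -0.23 (interval -0.35 to -0.11), farther from 0 than 81.6% of genes. Relative to all genes, the intervals of Gata5 and Zfpm2 lay below 0, while those of Gata2, Zfpm1 and Gata3 held 0. The share of all genes with intervals off 0 was not computed, so this does not mark Gata5 and Zfpm2 out. The intervals narrow with read depth, so they do not set cardiac apart from blood and endothelial members. Gata2, at -0.13 with fewer reads, lay farther from 0 than Gata4 at -0.07 and Gata6 at -0.08.

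Gata4, with 5968 reads in replicate 2 and 6069 in replicate 1, had a log2 ratio of -0.07 (interval -0.12 to -0.02). Gata6, with 2912 reads in replicate 2 and 2992 in replicate 1, had a log2 ratio of -0.08 (interval -0.16 to -0.01). Their intervals fell short of 0 by little, and 37.9% of genes for Gata4 and 44.9% for Gata6 were closer between the libraries. Gata2 had 628 reads in replicate 2 and 665 in replicate 1 and a log2 ratio of -0.13. Zfpm1 had 281 reads in replicate 2 and 287 in replicate 1 and a log2 ratio of -0.08, and Gata3 had a log2 ratio of 0.09.

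Of the 8 members 2 were higher and 6 lower in replicate 2, relative to a median over all 13760 genes of -0.003. Scaled to the spike-ins instead, that median was 1.29 and all 8 members were higher in replicate 2, and by the ratio of deposited TPM it was 0.15 and Gata4, Gata6, Gata2 and Zfpm1 turned positive. The median log2 ratio of the cardiac members was -0.16 (range -0.39 to -0.07) and that of the blood and endothelial members 0.01 (range -0.13 to 1.17). The ranges overlapped, and the difference of the medians, -0.16, was smaller than the spread within either set.

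**Figure D2:**
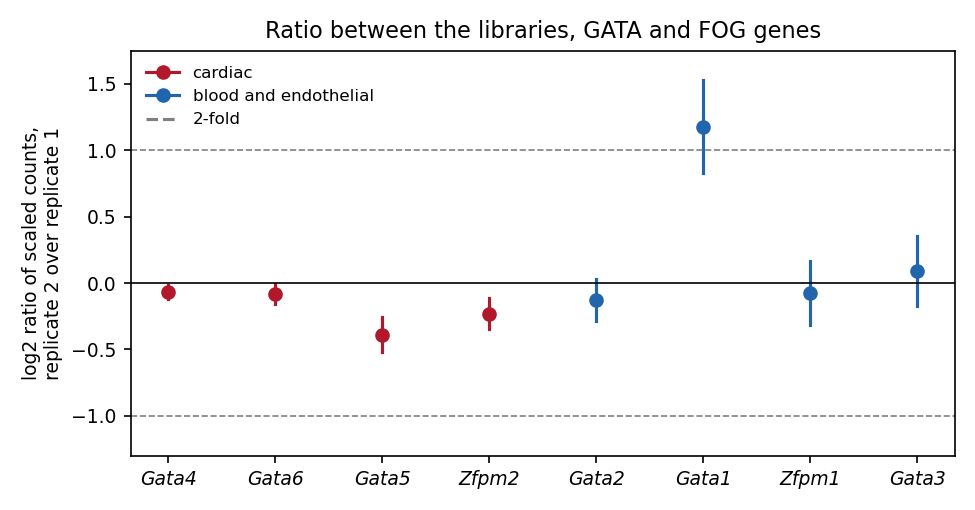
Log2 ratio of scaled counts, replicate 2 over replicate 1, for each gene, with exact binomial 95% intervals (counting error only) and dashed lines at 2-fold; cardiac members are red, blood and endothelial members blue. Gata1 lies at 1.17 and the other 7 between -0.39 and 0.09; scaled to the spike-ins, all 8 lie above 0.

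Spike-ins held 2.56% of reads in replicate 2 and 5.96% in replicate 1, and read totals were 36060765 in replicate 2 and 36733400 in replicate 1. All 6 cardiomyocyte and all 6 endothelial and endocardial markers reached 1 TPM in both libraries, with median log2 ratios of 0.10 and -0.09, so the defining genes of the labelled tissue were present. Several marker lists moved between the libraries as Gata1 did or against it. The hepatocyte list (Afp, Alb, Apoa1, Apob, Trf, Hnf4a) summed to 357 TPM in replicate 2 and 73.6 TPM in replicate 1, with 4 of 6 genes at 1 TPM in both and a median log2 ratio of 2.54. The erythroid list summed to 43924 TPM in replicate 2 and 66651 TPM in replicate 1, with 7 of 7 genes at 1 TPM and a median of -0.52. The megakaryocyte list summed to 77.0 TPM in replicate 2 and 60.9 TPM in replicate 1, with 5 of 5 genes at 1 TPM and a median of 0.32. The part of these cell types in the Gata1 difference was not tested.

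For the cell types in which Gata2 and Gata3 are best known, the mast cell list had 2 of 5 genes at 1 TPM in both libraries. Kit, also a gene of progenitors, had 7.40 TPM in replicate 2 and 7.21 TPM in replicate 1, Cpa3 had 1.65 TPM in replicate 2 and 1.8 TPM in replicate 1, and Tpsb2 was listed at 0 in both. The T cell list had 1 of 4, since Lck had 2.32 TPM in replicate 2 and 5.47 TPM in replicate 1. Cd3e was at 0 in replicate 2 and 0.38 TPM in replicate 1. It summed to 2.50 TPM in replicate 2 and 7.29 TPM in replicate 1, while Gata3 was nearly level. None of 5 sympathetic neuron genes reached 1 TPM in both libraries (sums 1.23 TPM in replicate 2 and 2.16 TPM in replicate 1). The part of these cells in the Gata2 and Gata3 levels was not tested.

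Gata4 was the member with the most divided transcripts. Of its 6 listed transcripts, Gata4-202 led with 40.05% of the gene's TPM in replicate 2 and 37.99% in replicate 1, a mean of 39.0% ± 1.46 (SD, n = 2). Gata4-204 held 20.94% in replicate 2 and 19.12% in replicate 1, Gata4-203 held 20.24% in replicate 2 and 19.37% in replicate 1, and Gata4-201 held 16.36% in replicate 2 and 19.22% in replicate 1. The leading transcript was the same in both libraries, and the order below it was not settled. Gata4-202 and Gata4-201 encode nearly the same protein, differing by 3 coding bases after which the frame continues, from coding base 614 (residue 205), and otherwise their coding sequence is identical. Together they held 56.4% of TPM in replicate 2 and 57.2% in replicate 1.

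The partial model Gata4-204 spans 653 nt in 2 exons and starts at 63271692, 26421 nt upstream of the start of Gata4-201. Gata4-203 starts inside the gene at 63213607 and has 708 coding nt, against 1323 in Gata4-202. Since TPM divides by length, short models weigh more in it than in reads. Gata4-204 held 4.74% of the gene's reads in replicate 2 and 4.31% in replicate 1, and Gata4-202 held 53.6% of reads in replicate 2 and 50.6% in replicate 1. Gata4-201 and Gata4-202 together took 75.6% of reads in replicate 2 and 76.5% in replicate 1. The upstream-start models Gata4-204 and Gata4-205 together held 23.4% of TPM in each library but 5.31% of reads in replicate 2 and 5.33% in replicate 1.

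**Figure D3:**
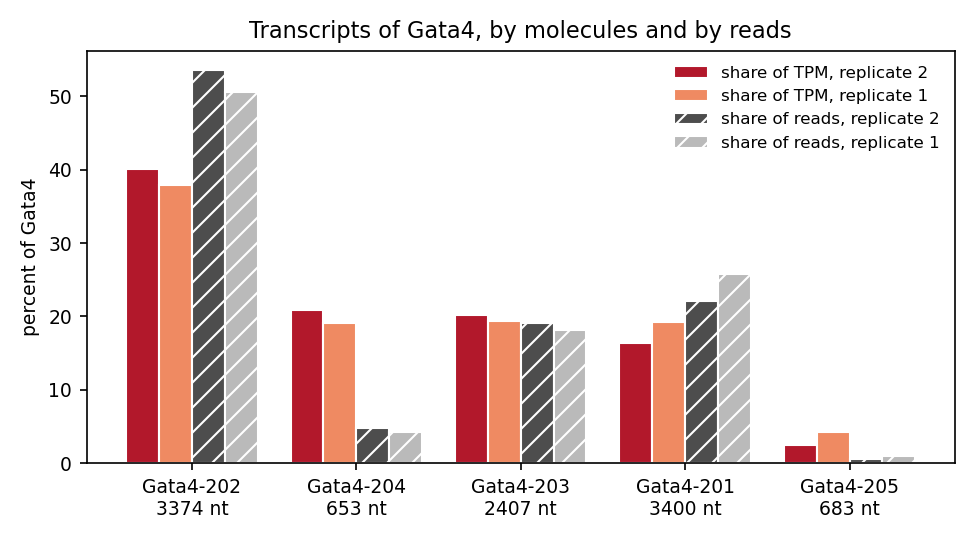
Percent of Gata4 held by each transcript, with its length in nt, as the deposited share of TPM (solid bars) and as the share of estimated reads (hatched bars), replicate 2 beside replicate 1. The 653-nt model Gata4-204 holds 20.94% of TPM but 4.74% of reads in replicate 2, and Gata4-202 leads on both measures in both libraries.

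Gata2 and Gata1 each have transcripts with separate starts. Promoter windows are shown for both Gata2 starts and for the start of Gata1-201 because the transcript shares bear on which start was read. The windows, from RefSeq on GRCm38.p6, run from 250 bases before to 50 after a start site, on the gene's strand. Capitals mark the words searched on both strands, which were the GATA words (AGATAA together with the word AGATAG, and TGATAA together with the word TGATAG) and CACCC, a word bound by KLF factors.
Gata2 upstream start, chr6:88193641-88193940, plus strand: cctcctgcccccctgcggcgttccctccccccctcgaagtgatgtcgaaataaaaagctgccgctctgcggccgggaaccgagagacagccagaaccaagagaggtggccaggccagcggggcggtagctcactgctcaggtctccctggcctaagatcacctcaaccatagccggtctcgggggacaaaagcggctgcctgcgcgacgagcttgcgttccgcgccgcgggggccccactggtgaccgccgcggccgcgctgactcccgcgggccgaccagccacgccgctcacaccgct
Gata2 downstream start, chr6:88198414-88198713, plus strand: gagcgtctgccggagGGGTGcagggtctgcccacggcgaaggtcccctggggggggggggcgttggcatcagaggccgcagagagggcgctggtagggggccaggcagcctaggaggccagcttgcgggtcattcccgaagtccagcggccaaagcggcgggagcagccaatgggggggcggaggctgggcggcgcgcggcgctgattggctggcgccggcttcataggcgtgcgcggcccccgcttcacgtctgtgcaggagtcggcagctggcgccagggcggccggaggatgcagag
Gata1, chrX:7967861-7968160, minus strand: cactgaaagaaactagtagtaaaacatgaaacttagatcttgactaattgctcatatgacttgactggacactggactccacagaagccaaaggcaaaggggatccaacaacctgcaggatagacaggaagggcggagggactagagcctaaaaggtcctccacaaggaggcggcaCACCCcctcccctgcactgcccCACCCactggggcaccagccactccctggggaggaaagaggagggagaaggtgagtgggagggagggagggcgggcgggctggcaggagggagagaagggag
The upstream Gata2 window holds none of the words, the downstream one holds 1 CACCC word at -235, and the Gata1 window holds 2, at -74 and -52. Matched windows were found for 5 members, 6 windows in all (Gata1, Gata2, Gata3, Gata5 and Zfpm1), and 5 of the 6 hold no GATA word, as do 70.2% of 32851 windows of the same length. The exception was Gata3, with TGATAG at 37. A CACCC word is in 5 of the 6 windows and in 57.5% of all. A match says only that these letters are in the window.

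Gata2-201, whose first base lies 4443 nt downstream of the upstream start, held 100% of the gene's TPM in replicate 2 and 98.35% in replicate 1. Gata2-202, from the upstream start, was assigned 0 of 628 reads in replicate 2 and 10.6 of 665 reads in replicate 1. In M21 the first base of Gata2-201 lies 330 nt before the RefSeq start site, and its deposited length is shorter by the same 330 nt. Both transcripts have 1440 coding nt, and the reads lay almost wholly on the model of the downstream start. Gata1-201, which starts at the RefSeq start site 7967910, held 96.35% of the gene's TPM in replicate 2 and 83.10% in replicate 1. The rest in replicate 1 was mainly Gata1-203, a 421-nt model with 12.85% of TPM from 2.62 estimated reads, against 0 in replicate 2. By reads, Gata1-201 held 98.8% in replicate 2 and 95.9% in replicate 1, so its lower share of TPM in replicate 1 rested mainly on under 3 reads.

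Gata5, Gata6 and Zfpm2 have 1 listed transcript each. For Gata3 and Zfpm1 the first transcript took 100% of TPM in both libraries, although 6 transcripts of Gata3 and 4 of Zfpm1 are listed. The deposited posterior share of Gata3-201 was lower, 70.88% in replicate 2 and 66.89% in replicate 1, and that of Zfpm1-201 80.63% in replicate 2 and 84.49% in replicate 1. Genes that overlap members were mostly low. The exceptions were 1010001N08Rik, on the strand opposite to Gata6, with 11.06 TPM in replicate 2 and 11.61 TPM in replicate 1, and Gm20388, a same-strand gene model spanning Zfpm1 and many neighbours, with 218 reads in replicate 2 and 7.14 reads in replicate 1. The headers and labels do not state whether counting used strand. Gata5 and Gata5os, on opposite strands, shared reads, so counting did not keep the strands of this pair wholly apart. Gata6, Gata3 and their opposite-strand neighbours had whole counts in both libraries. On the opposite strand, however, Gata6 and Gata3 share no 100-nt window with another gene, against 63 windows for Gata5. Reads of about that length could not be split there under any strand setting, so these whole counts do not bear on strand. Opposite-strand reads inside Gata6 and Gata3 still cannot be told apart with certainty.

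The genes listed as partners, targets, relatives and regulators of the GATA and FOG genes were nearly all present. Of 99 listed genes matched, 95 reached 1 TPM in both libraries, against 57.3% of all protein-coding genes, and Runx1, Gp1ba, Selp and Zglp1 did not. The lists were chosen with earlier results of these data known, and include Zfpm1 itself. The higher share therefore describes the choice of genes and is no finding about GATA partners or targets. All 11 cardiac partner factors reached it, with a median of 29.8 TPM. The homeobox factor Nkx2-5 led at 110 ± 7.57 TPM (SD, n = 2), above Gata4, followed by the MADS-box factor Mef2a at 58.9 ± 6.34 TPM, the T-box factor Tbx20 at 56.3 ± 1.65 TPM and the coactivator Myocd at 50.4 ± 1.92 TPM. All 17 FOG repressor partners reached it too. Their median of 49.7 TPM was far above both FOG genes, though the lowest of them, at 5.79 TPM, lay below Zfpm2. The histone-binding NuRD subunits Rbbp7 and Rbbp4 stood at 317 ± 28.7 and 229 ± 18.3 TPM, the co-repressor Ctbp1 at 143 ± 19.0 TPM and the NuRD subunit Mbd3 at 141 ± 11.8 TPM. Median log2 ratios of -0.01 for cardiac partners and 0.02 for FOG partners were near that of all genes.

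Of the blood and endothelial partners 10 of 11 reached 1 TPM, with a median of 6.16 TPM. The bridging protein Ldb1 stood at 54.9 ± 4.77 TPM, the E protein Tcf3 at 45.6 ± 0.742 TPM, the LIM protein Lmo2 at 19.3 ± 0.368 TPM and the ETS factor Fli1 at 14.7 ± 0.707 TPM. Runx1 lay below, with 0.93 TPM in replicate 2 and 0.89 TPM in replicate 1. Their median log2 ratio was -0.09, but 3 factors of red cell precursors, named after their values were seen, lay farthest from it. Klf1, the erythroid KLF factor, had 12.72 TPM in replicate 2 and 3.83 TPM in replicate 1 (log2 ratio 1.59). Gfi1b, a repressor of the same lineage, had 3.82 TPM in replicate 2 and 2.21 TPM in replicate 1 (log2 ratio 0.49), so both lay in the direction of Gata1. Tal1, which binds with GATA1, had 4.40 TPM in replicate 2 and 6.47 TPM in replicate 1 (log2 ratio -0.62), the opposite one.

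The targets did not move as 1 group with Gata1. Of 15 matched erythroid targets, all at or above 1 TPM with a median of 89.3 TPM, 5 were higher and 10 lower in replicate 2 relative to all genes, and the median log2 ratio was -0.36 (range -0.84 to 1.59). Hba-a2, Hbb-y, Hba-a1 and Hbb-bt led, and Hba-a2 had 34982 TPM in replicate 2 and 52599 TPM in replicate 1. Hbb-y had 19948 TPM in replicate 2 and 32286 TPM in replicate 1. The adult globin genes are near-identical copies, so their single values are uncertain, and Zfpm1 is itself on this list, as are Klf1 and Gfi1b. The 8 megakaryocyte targets with enough reads were all higher in replicate 2, none by 2-fold. Their median log2 ratio was 0.22 (range 0.01 to 0.62), against -0.003 over all genes. All 5 megakaryocyte and all 7 erythroid markers given above are among these targets, so marker and target lists are not separate observations. Some cardiomyocyte and endothelial markers are likewise among the cardiac and endothelial targets, and some partner factors are also listed as targets. Platelet factor 4 (Pf4) had 48.04 TPM in replicate 2 and 40.30 TPM in replicate 1, and Ppbp, another platelet chemokine, 8.11 TPM in replicate 2 and 4.77 TPM in replicate 1. Itga2b, Nfe2 and 3 more also reached 1 TPM, while Gp1ba (0.85 TPM in replicate 2, 0.67 TPM in replicate 1) and Selp (0.19 TPM in replicate 2, 0.07 TPM in replicate 1) did not.

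All 15 cardiac targets of GATA4 reached 1 TPM, with a median of 167 TPM and log2 ratios between -0.18 and 0.24. Cardiac actin (Actc1) led at 9672 ± 1150 TPM, with atrial natriuretic peptide (Nppa) at 4105 ± 763 TPM, Myl3 at 3325 ± 457 TPM and Tnnc1 at 3044 ± 520 TPM. All 11 endothelial targets of GATA2 reached it as well, with a median of 27.6 TPM and a median log2 ratio of -0.08. Pecam1 at 48.8 ± 1.39 TPM, Emcn at 48.4 ± 2.03 TPM, Tie1 at 47.4 ± 3.65 TPM and Vcam1 at 46.8 ± 7.39 TPM led, each above Gata2 itself.

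**Figure D4:**
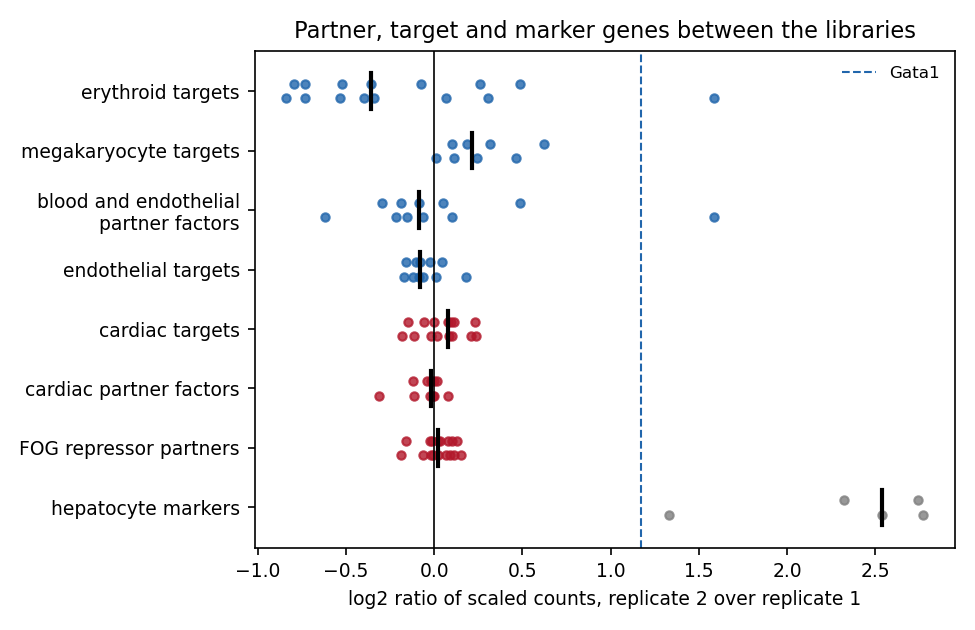
Log2 ratio of scaled counts, replicate 2 over replicate 1, of single genes (points) of partner, target and marker lists with their medians (bars), beside Gata1 (dashed line, 1.17); blue lists belong to blood and endothelial members, red to cardiac members, grey are hepatocyte markers. Erythroid targets lie around -0.36 and hepatocyte markers around 2.54; ratios are relative to all genes, whose median is -0.003, and scaling to the spike-ins moves that median to 1.29.

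The other genes with a GATA-type zinc finger, which include NuRD subunits already counted as FOG repressor partners, had 8 of 9 at 1 TPM and a median of 15.0 TPM. Mta2 stood at 68.5 ± 5.03 TPM and Gatad1 at 46.5 ± 4.65 TPM, between Gata4 and Gata6, while the germ cell gene Zglp1 had 0.44 TPM in replicate 2 and 0.60 TPM in replicate 1. BMP and retinoic acid signals act upstream of cardiac GATA genes, and all 13 listed genes of these pathways reached 1 TPM, with a median of 13.0 TPM and a median log2 ratio of -0.06. The ligand Bmp7 stood at 34.7 ± 4.77 TPM, the retinoic acid synthesis enzyme Aldh1a2 at 31.2 ± 5.24 TPM, the receptor Bmpr1a at 29.3 ± 0.976 TPM and the retinoic acid receptor Rara at 22.4 ± 1.01 TPM. Aldh1a2, with 27.48 TPM in replicate 2 and 34.89 TPM in replicate 1, had a log2 ratio of -0.49, the lowest of the 13, of which 5 were higher in replicate 2.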

How the data were processed

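Total RNA-seq files of 2 libraries on mm10 were used, with annotation M4 per the file headers. Per the file headers, the deposited files hold an expected count per gene and transcript, not normalized, TPM scaled to the same sum over all listed features, spike-ins included, and each transcript's percent of its gene's TPM. They also hold posterior means and credibility bounds of TPM, whose level is not stated. The aligner, quantifier and strand setting were not given in the sources used here.

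Names came from GENCODE M21 (same assembly), looked up by identifier with the version removed, and 42462 of 43346 genes matched. Coordinates are those of M21. The deposited length of Gata2-201 is 3241 nt and that of M21 3571 nt. Of the listed genes Ahsp did not match. The 96 spike-ins, phiX and 26248 numbered features stayed out of library sizes.

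Expected counts were scaled with edgeR 4.0.16 (TMM) in R 4.3.3, with 0.5 added for log2 ratios and a mean count of at least 50 required. DESeq2 1.42.0 size factors, other scalings, minimums and pseudocounts, posterior means and leaving out either library were alternatives. Each side being 1 library, no p-value was computed. Depths were 36060765 and 36733400 reads (replicates 2 and 1). Intervals cover counting error only, and may be too narrow even for that, as PCR copies were not told apart. A pair was called where both libraries gave 1 direction and the deposited intervals overlapped in neither. The ratio method was tested on simulated data. The remaining computing was done in Python (3.11.15) with the packages pandas (2.3.3), numpy (2.4.6), matplotlib (3.10.9) and scipy (1.17.1).

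The members and lists were chosen with earlier results of these data known. Named genes are all members, up to 4 highest genes of each list and those below 1 TPM where 4 or fewer, overlapping genes, and transcripts with at least 10% of a gene; Klf1, Gfi1b, Tal1, Gata4-205 and Gata2-202, outside it, were named after their values were seen, and marker lists are given mainly as sums. The foregut and lung and the macrophage lists, also computed, had 4 of 5 and 5 of 5 genes at 1 TPM in both libraries and median log2 ratios of -0.25 and -0.39.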

Additional observations from a re-analysis of the deposited data

How the results depend on the processing

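Over 59 results, 352 alternative values were computed. By the limits set for each kind of result, 266 stayed the same, 80 moved and 6 were reversed. Of the 254 alternatives that are log2 values, 33 took the other sign. These were 17 by scaling to the spike-ins, 9 by the ratio of TPM and 7 by other settings. The last were Gata1 over Gata3 and Gata1 over Zfpm1 (by posterior means, undivided counts, or replicate 1 alone) and the cardiac partner median by library size. Scaling to the spike-ins, whose share differed between the libraries, put the all-gene median at 1.29 on the log2 scale. On that scale Gata4 lay at 1.22, Gata6 at 1.20, Gata5 at 0.90, Zfpm2 at 1.06 and Gata1 at 2.46, and 7 members were at least 2-fold apart. By the ratio of TPM, Gata4 lay at 0.077, Gata6 at 0.057, Zfpm1 at 0.066 and Gata2 at 0.012. TPM rescaled over protein-coding genes without globin and mitochondrial genes was 1.46 to 1.51 times the deposited TPM of the members, 130 for Gata4. With a minimum mean count of 200, 0 members were at least 2-fold apart, because Gata1, with a mean count of 164, was no longer counted. With a minimum of 5 TPM, 5 members reached it. The log2 ratio of cardiac over blood and endothelial TPM was 3.29 without Zfpm1 and Zfpm2 and 3.34 without Gata3. By reads, Gata4-202 held 52.1% of Gata4, since the short models no longer gain from division by length. Posterior means gave 3.83 TPM for Gata3. The comparison with genes of mean count 100 to 300 was added after seeing the data. No paired analysis was possible because the 2 libraries form 1 group. Depth limits Gata1, Gata3 and Zfpm1 most, with under 300 reads each.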
